A study of Mus musculus with 9 samples.

Results

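The tripartite motif (TRIM) genes are described here across primary renal tubular epithelial cells of the mouse. The family was chosen with earlier results of these data known. Its members were taken by name and type alone. They are every protein-coding row of the expression table whose symbol is Trim, a number and at most 1 further letter. This gave 67 genes of 31167 in the table. All 67 had a position in GENCODE M21 (genome build GRCm38).

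RNA sequencing was done on C57BL/6 kidney cells in 3 groups of 3 libraries each, 9 in all. Sham cells were not treated. H/R cells (hypoxia/reoxygenation, a culture model of ischemic kidney injury) were kept for 6 h at 1.0% oxygen in medium without glucose and then for 18 h in complete medium at normal oxygen. EGR1OV cells were transfected, with the reagent EndoFectin Max, with a plasmid that expresses Egr1 (early growth response 1, a zinc finger transcription factor) from the cytomegalovirus promoter, which is active in most cell types. No plasmid without Egr1 is among these samples, so the effects of Egr1 and of plasmid transfection cannot be told apart. The labels give 1 treatment text for all samples, so it is not known from them whether Sham and H/R cells received the transfection reagent, when EGR1OV cells were harvested, or whether these also went through H/R. In the study's methods, transfection in general came before H/R, while the groups are described there as H/R, plasmid or no treatment. The comparisons of EGR1OV are therefore read as between groups as labelled. Neither the age of the mice nor whether libraries of a group came from separate cultures or animals is given, and p-values then measure only the spread between these libraries, which may be technical.

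TRIM proteins share a RING finger, B-box zinc fingers and a coiled coil, and most of them are ubiquitin ligases: the RING recruits an enzyme charged with ubiquitin, and the C-terminal domain binds the protein to be modified. Members that end in a PRY-SPRY domain include many that act in the defence of a cell against viruses, and a number of these are switched on by interferon through a promoter element called the interferon-stimulated response element. Other members act on chromatin, on microtubules or in muscle. The PRY-SPRY members have multiplied in rodents, above all in a cluster on mouse chromosome 7.

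Values are FPKM (fragments mapped to a gene, divided by its exon length and by the size of the library), which are scaled by gene length and so can be compared between genes. The depth recovered from them was 16183617 to 18384022 reads per library. Egr1 itself was at 6.2, 6.91 and 6.09 FPKM in Sham, at 8.57, 7.59 and 7.48 in H/R and at 45.7, 42.2 and 40.1 in EGR1OV, a ratio of means of 6.66 for EGR1OV over Sham. Reads from the plasmid and from the chromosome cannot be separated in that value. Of the tubular epithelium markers, Krt8 was at 1014 FPKM and Cdh1 at 86.2 FPKM on average in Sham, while Umod was at 0 in all 9 libraries and Slc34a1, a marker of mature proximal tubule, was at no more than 0.0362 FPKM in any.

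In cultured tubular cells the TRIM family covered a wide range of levels. In Sham, Trim28 (KAP1, the corepressor of KRAB zinc finger proteins) was highest, at 72.3 ± 2.01 FPKM (SD, n = 3). Trim35 followed at 41.8 ± 1.05, Trim44 at 38.1 ± 0.809, Trim16 at 28.4 ± 0.385 and Trim8 at 22.98 ± 0.986 FPKM. These 5 levels are farther apart than their SDs. Across members, 32 of 67 had a mean of at least 1 FPKM in Sham and 32 in H/R, against 38 in EGR1OV, and 12, 12 and 21 reached 10 FPKM. A gene entered the tests when its mean over all 9 libraries was at least 0.5 FPKM. This left 38 members, and 29 were not tested. Trim15, at 0.878 FPKM, was the lowest member inside that limit and Trim36, at 0.466 FPKM, the highest outside it. Between libraries of a group, the median coefficient of variation of the tested members was 4.86% (Sham), 6.18% (H/R) and 4.93% (EGR1OV), beside 5.32%, 5.62% and 5.58% for all genes tested.

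TRIM transcripts took up more of the FPKM in EGR1OV than in the other groups. Summed over the 67 members, EGR1OV reached 649.8 ± 9.29 FPKM, beside 413.5 ± 5.78 for Sham and 409.8 ± 2.4 for H/R (SD over 3 libraries), and no EGR1OV library overlapped the others. Most of the difference lay in the 10 members of the chromosome 7 cluster from Trim6 to Trim30d, whose sum was 145 ± 2.19 FPKM in EGR1OV beside 11.9 ± 0.504 in Sham and 12.2 ± 0.824 in H/R. Their share of all TRIM FPKM was 2.79% to 2.97% in Sham libraries, 2.82% to 3.2% in H/R libraries and 21.5% to 22.7% in EGR1OV libraries. In these bulk samples, fewer cells of a type and less RNA per cell cannot be told apart.

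Each gene was tested with limma on log2(FPKM + 1) over the 13985 genes that passed the limit, with Benjamini-Hochberg adjustment over all of them. A gene was called when its adjusted p was under 0.05 and its fold at least 1.3 (comparisons of EGR1OV) or 1.2 (H/R against Sham). In EGR1OV against Sham, 14 members were called higher and 1 lower, that is 15 of 38 or 39.5%, where 16.4% of all genes tested were (9.87% higher, 6.51% lower). The median change of the 38 members was 0.24 on the log2 scale, against 0.02 over all genes. Trim14, Trim30d and Trim6 were under 0.5 FPKM on average in Sham and in H/R and so passed the limit only through EGR1OV. Among the 35 members at or above 0.5 FPKM in Sham, 12 were called (34.3%), beside 15.7% of the 13674 genes of that kind.

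**Figure D1:**
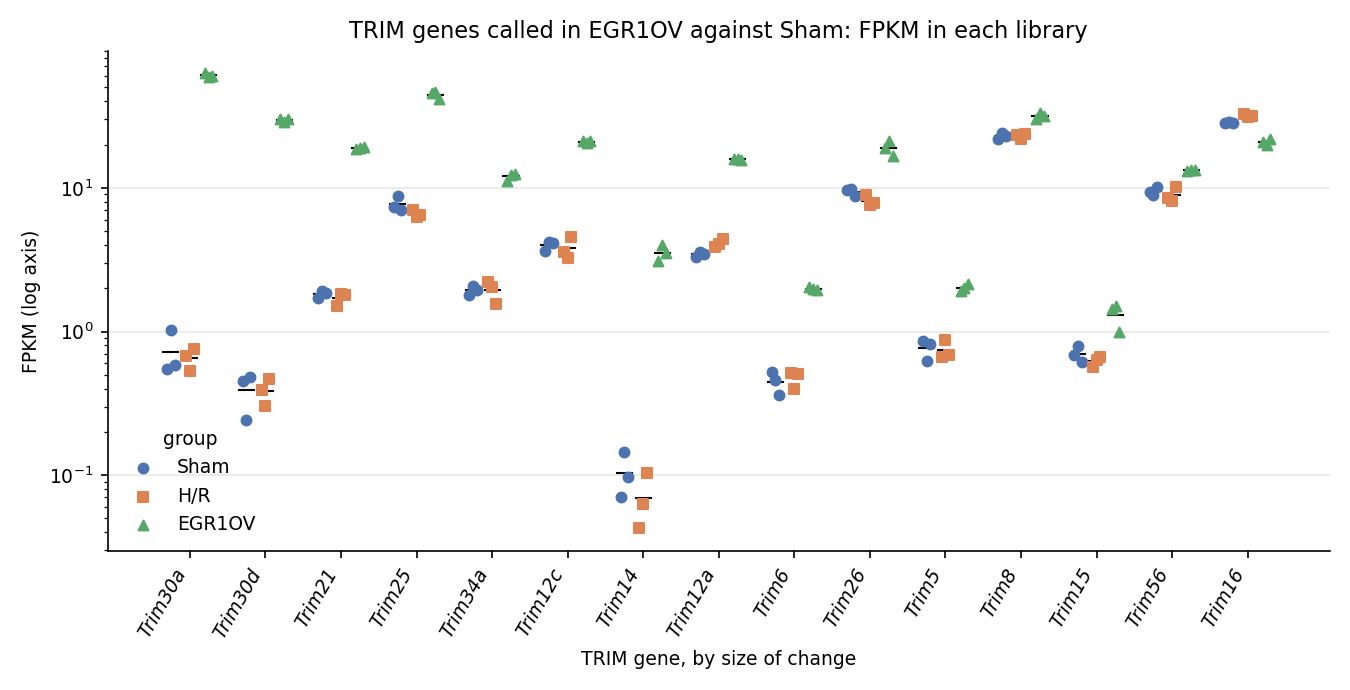
FPKM (log axis) in each library for the 15 TRIM genes called in EGR1OV against Sham, ordered by the size of the change. Points are libraries (circles Sham, squares H/R, triangles EGR1OV) and bars are means of 3. For Trim30a the EGR1OV libraries sit between 58.95 and 62.5 FPKM and the Sham libraries between 0.547 and 1.03 FPKM; for Trim16, the last gene, EGR1OV lies below both other groups.

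The 2 largest rises were those of Trim30a and Trim30d, neighbours on chromosome 7 that belong to a rodent group of TRIM genes. Trim30a restrains Toll-like receptor signalling to NF-kB by promoting the loss of TAB2 and TAB3. Trim30a (chr7:104409025-104465193, minus strand) was at 0.547, 1.03 and 0.589 FPKM in Sham, at 0.676, 0.529 and 0.754 in H/R and at 62.5, 58.95 and 60.3 in EGR1OV. It was low in all 6 libraries of the first groups and the second most abundant TRIM transcript in EGR1OV, after Trim28. Its mean was 83.8 times that of Sham, a change of 5.17 ± 0.0993 (SE) in log2(FPKM + 1), with an adjusted p of 2.74e-10 by limma. Trim30d (chr7:104470014-104507849, minus strand) was at 0.453, 0.244 and 0.484 FPKM in Sham, at 0.395, 0.304 and 0.465 in H/R and at 30.3, 28.9 and 30.1 in EGR1OV. This was a ratio of means of 75.7 and a change of 4.47 ± 0.0754 on the same log2 scale (limma adjusted p = 1.26e-10). A stretch of 50 bases of a Trim30a transcript also occurred in another gene at 5.98% of positions, nearly always in Trim30d, so most of their reads could be told apart.

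A pair of further genes of the group were too low to be tested. Trim30c had 0 reads in all 6 Sham and H/R libraries and 15, 23 and 20 reads in EGR1OV, which is at least 6.52-fold higher than a floor of 3 reads per library. Trim30b had 9 reads in all of Sham, 2 in all of H/R and 79 in all of EGR1OV, a ratio to Sham of 8.88 per depth (95% exact interval 4.45 to 20.1, counting error only). With no limit on low values, Trim30c was called higher (0.74 on the log2 scale, limma adjusted p = 4.29e-05), while Trim30b, with a difference of 0.24, did not reach the fold.

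Trim5, Trim12a and Trim12c are the mouse relatives of human TRIM5, which recognises the capsid of retroviruses. Trim12c was at 3.66, 4.22 and 4.13 FPKM in Sham, at 3.55, 3.23 and 4.58 in H/R and at 21.4, 20.5 and 21.2 in EGR1OV. Trim12a was at 3.29, 3.57 and 3.49 FPKM in Sham, at 3.86, 4.05 and 4.39 in H/R and at 15.9, 16.0 and 15.6 in EGR1OV. Trim5 was lower, at 0.857, 0.622 and 0.821 FPKM in Sham, 0.67, 0.87 and 0.688 in H/R and 1.91, 2.01 and 2.13 in EGR1OV. For each gene all EGR1OV libraries lay above all others, and the ratios of means to Sham were 5.25 for Trim12c, 4.59 for Trim12a and 2.63 for Trim5. The changes in log2(FPKM + 1) were 2.14 ± 0.0923 (limma adjusted p = 9.98e-08), 1.92 ± 0.0466 (1.44e-09) and 0.77 ± 0.0795 (4.56e-05). Trim5 and Trim12c shared 50-base stretches with another gene over 36.6% and 33.7% of positions, mostly with each other, so how their reads were divided between them is uncertain; for Trim12a the share was 10.5%.

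Trim34a and Trim6 completed the cluster. Trim34a was at 1.78, 2.08 and 1.94 FPKM in Sham, at 2.22, 2.06 and 1.57 in H/R and at 11.2, 12.4 and 12.4 in EGR1OV, a ratio of means of 6.21 and a log2 change of 2.15 ± 0.0851 (limma adjusted p = 5.4e-08). Trim34a shared 59.7% of its 50-base stretches with other genes, mainly its copy Trim34b, and the split between the copies is uncertain. Trim34b had 15, 10 and 46 reads summed over Sham, H/R and EGR1OV. Trim6, which builds free ubiquitin chains that activate the kinase IKK epsilon, was at 0.522, 0.457 and 0.359 FPKM in Sham, at 0.518, 0.4 and 0.507 in H/R and at 2.06, 1.99 and 1.93 in EGR1OV. Its change was 1.05 ± 0.0728 in log2(FPKM + 1) (limma adjusted p = 2.92e-06) and 4.46 as a ratio of means.

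All 7 tested members of the 0.289 Mb between the start of Trim6 and the end of Trim30d (chr7:104218793-104507849) were thus called higher. Of all genes tested, 9.87% were called higher. Among the 7, Trim30d and Trim6 passed the limit only through EGR1OV, so their tests depended on it. The table holds 5 other genes in this stretch, of which 4 were tested. The antisense gene Gm15133 and the pseudogene Gm16464 were called higher, from 0.565 to 2.83 FPKM and from 0.545 to 3.64 FPKM on average. The pseudogene Gm45471 and the small nuclear RNA gene Gm25405, at 4.5 and 4.52 FPKM in EGR1OV and at or near 0 in the other groups, passed the limit only through EGR1OV, so that their calls were set by it. They lie among the TRIM genes, and whether counting used the strand is not given in the sources used here, so reads of overlapping genes may not be separate. On the same chromosome Trim21, to one side, was called higher as well. Its neighbour Trim68 was at 3.38 FPKM in Sham and 3.37 in EGR1OV, and Trim3, on the far side, at 13.5 and 13.2 FPKM, with changes of -0.01 and -0.04 that were not called. Over the 3.08 Mb from Trim21 to Trim3, 8 of 10 tested TRIM members were called higher, Trim30d and Trim6 included. Of 13 other tested genes there, with Gm45471 and Gm25405 included, 4 were called higher and 2 lower.

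**Figure D2:**
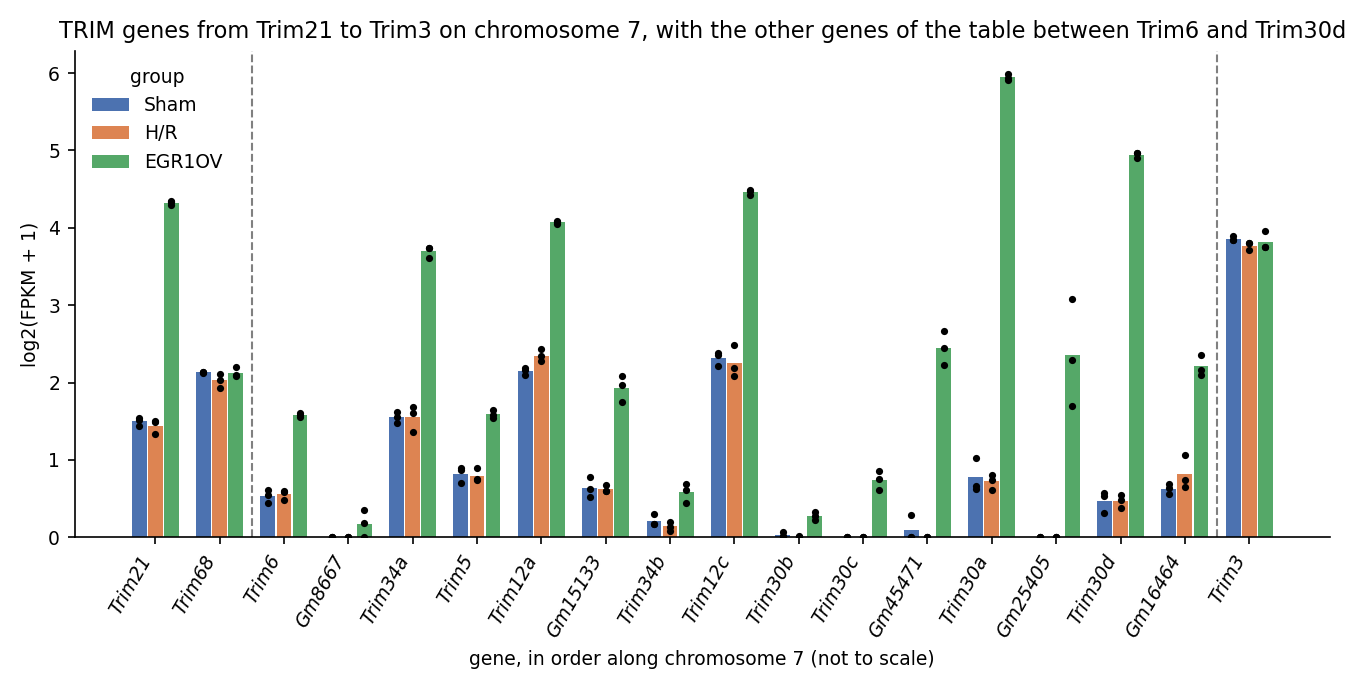
Mean log2(FPKM + 1) of 3 libraries per group (bars, with each library as a point) for the TRIM genes of the stretch from Trim21 to Trim3 on chromosome 7 and for the other genes listed between Trim6 and Trim30d (dashed lines), in order but not to scale. EGR1OV stands above Sham and H/R for Trim21 and through the cluster, and the groups are level at Trim68 and Trim3.

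The starts printed below are those of the 8 members called higher whose promoter windows held a match to the element searched for. Every line thus holds a match by choice. Trim6, Trim25, Trim56 and Trim15 were called higher too, had windows without a match and are not printed. Promoter windows of 300 bases, from 250 before to 50 after a start site, were taken from RefSeq (GRCm38.p6) and existed for 52 of the 67 members. They were searched for the core of the interferon-stimulated response element, read here as GAAA, any 2 bases and GAAA on either strand, so that a match on the other strand reads TTTC, any 2 bases and TTTC. Each line gives 120 bases 5′ to 3′ along the gene, with matches in capitals. The stretches run from base -70 to base 50 around the start, except for Trim26, from -190 to -71. Their positions are chr7:104465144-104465263 (Trim30a), chr7:104507800-104507919 (Trim30d), chr7:104315446-104315565 (Trim12a), chr7:104353300-104353419 (Trim12c), chr7:104288057-104288176 (Trim5) and chr7:102565433-102565552 (Trim21), all on the minus strand, and chr7:104244387-104244506 (Trim34a) and chr17:36836956-36837075 (Trim26) on the plus strand.
Trim30a: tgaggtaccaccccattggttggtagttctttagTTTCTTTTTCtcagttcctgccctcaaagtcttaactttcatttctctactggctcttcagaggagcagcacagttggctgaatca
Trim30d: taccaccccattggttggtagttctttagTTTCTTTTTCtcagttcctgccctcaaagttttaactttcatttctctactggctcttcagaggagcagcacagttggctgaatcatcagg
Trim12a: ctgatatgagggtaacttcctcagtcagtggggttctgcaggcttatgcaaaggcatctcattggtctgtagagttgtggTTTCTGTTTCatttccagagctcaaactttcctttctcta
Trim12c: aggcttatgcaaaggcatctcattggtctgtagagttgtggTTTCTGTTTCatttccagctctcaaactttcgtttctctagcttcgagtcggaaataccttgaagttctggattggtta
Trim5: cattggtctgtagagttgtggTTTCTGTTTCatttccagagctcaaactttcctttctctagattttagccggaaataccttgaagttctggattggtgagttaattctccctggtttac
Trim34a: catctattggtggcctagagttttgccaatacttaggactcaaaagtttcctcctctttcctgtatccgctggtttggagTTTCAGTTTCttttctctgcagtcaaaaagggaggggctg
Trim21: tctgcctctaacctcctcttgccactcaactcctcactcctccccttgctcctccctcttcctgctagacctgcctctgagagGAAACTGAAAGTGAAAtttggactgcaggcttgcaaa
Trim26: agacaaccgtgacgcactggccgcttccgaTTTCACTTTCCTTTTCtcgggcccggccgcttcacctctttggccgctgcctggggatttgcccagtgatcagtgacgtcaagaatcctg

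Matches lay in the windows of 8 of the 12 members that were called higher and had a window. Those 12 include Trim30d, with a match, and Trim6, without one, which passed the limit only through EGR1OV. Among tested members that were not called, 1 of 18 had a match (Trim2), and among members not tested, 0 of 22. Those 22 include Trim30b, Trim30c, Trim34b and Trim69, which had more reads in EGR1OV than in Sham and no match. Over the genome the match was found in 3.44% of 32851 windows, in 3.7% of the 9604 tested genes with a window and in 11.1% of the 985 genes called higher in EGR1OV. Trim30a has a second start in RefSeq, with a match from base 3 after it (window chr7:104446076-104446375, not printed). The match began 36 bases before the printed start of Trim30a, 41 before it in Trim30d, 29 before it in Trim12c and 49 before it in Trim5, and at base 11 after the start in both Trim12a and Trim34a. In Trim21 and Trim26 a pair of matches overlap. These windows are not independent: Trim30a and Trim30d were 90.8% identical over the 300 bases, Trim12c and Trim5 82.5%, Trim12a and Trim12c 72.6%, whereas Trim30a and Trim21 were 45.2% identical. Trim25, Trim6, Trim56 and Trim15 were called higher without these letters in their windows, and Trim14 and Trim8 had no window. A match is a description of the letters, and binding was not measured.

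Outside the cluster, 7 members were called higher. Trim21, a cytosolic receptor for the Fc part of antibodies, was at 1.7, 1.92 and 1.86 FPKM in Sham, at 1.51, 1.83 and 1.81 in H/R and at 18.7, 19.1 and 19.3 in EGR1OV. The EGR1OV libraries were all above the others, with a ratio of means of 10.4 and a log2 change of 2.83 ± 0.0557 (limma adjusted p = 3.33e-10). Trim25, which ubiquitinates the RNA sensor RIG-I and also attaches ISG15, was at 7.39, 8.78 and 7.0 FPKM in Sham, at 7.04, 6.23 and 6.46 in H/R and at 45.5, 46.6 and 41.4 in EGR1OV. It became the fourth most abundant member in EGR1OV, with a ratio of means of 5.76 and a log2 change of 2.39 ± 0.0782 (limma adjusted p = 1.29e-08).

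Trim14 lacks a RING finger and serves as a mitochondrial adaptor of the signalling protein MAVS. It was at 0.0701, 0.145 and 0.0978 FPKM in Sham, at 0.0427, 0.0627 and 0.104 in H/R and at 3.1, 3.98 and 3.51 in EGR1OV, so it was low in 6 libraries and above 3 FPKM in the other 3. Its change was 2.03 ± 0.0857 in log2(FPKM + 1) (limma adjusted p = 8.45e-08), and the ratio of means was 33.8 on the basis of 5 to 11 reads per Sham library. Of the exon bases of Trim14, 38% lie opposite exons of other genes, chiefly Nans, and without knowledge of strand the reads there cannot be assigned.

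Trim26, a ligase that acts on the transcription factor IRF3, lies in a stretch of chromosome 17 that also holds the histocompatibility gene H2-M10.2. Trim26 was at 9.65, 9.8 and 8.79 FPKM in Sham and at 8.91, 7.61 and 7.89 in H/R. In EGR1OV it was at 18.9, 21.3 and 16.5 FPKM. Its change was 0.93 ± 0.0875 (limma adjusted p = 2.43e-05). Its neighbour Trim15, a protein of focal adhesions, was at 0.682, 0.79 and 0.618 FPKM in Sham and at 1.44, 1.5 and 1.0 in EGR1OV, a change of 0.44 ± 0.0961 (limma adjusted p = 0.00456). The other tested member there, Trim39, was not called: its Sham libraries, at 4.52 to 4.73 FPKM, overlapped those of EGR1OV, at 4.53 to 5.6. The remaining members of this chromosome 17 group, Trim10, Trim31 and Trim40, were too low to test.

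Trim8 and Trim56 carry no known domain after the coiled coil. Trim8, which acts on SOCS1 and on the kinase TAK1, was at 21.95 to 23.9 FPKM in Sham, 22.03 to 23.7 in H/R and 30.2 to 33.3 in EGR1OV. Trim56, which acts in the STING pathway, was at 8.97 to 10.2, 8.12 to 10.2 and 13.0 to 13.4 FPKM in the same order. Both were higher in every EGR1OV library than in any other, and their changes were 0.45 ± 0.046 (limma adjusted p = 4.53e-05) and 0.44 ± 0.0742 (0.0011). With quantile normalization neither reached the fold of 1.3.

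Trim16 alone was called lower in EGR1OV, and 3 more (Trim59, Trim24 and Trim2) were lower past the adjusted p but not the fold. Trim16, which marks damaged lysosomes for autophagy and acts in the response to oxidative stress, was at 28.2, 28.8 and 28.1 FPKM in Sham, at 32.5, 30.9 and 31.7 in H/R and at 21.0, 19.8 and 21.9 in EGR1OV. None of the groups overlapped. Against Sham, Trim16 fell by 0.43 ± 0.0373 on the log2(FPKM + 1) scale in EGR1OV (limma adjusted p = 1.53e-05). For every member called, the exact two-sided permutation test of its 3 against 3 values gave p = 0.1, the smallest that design allows.

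By domains, the class listed as having both a RING and a PRY-SPRY domain held 21 of the 38 tested members and 11 of the 14 called higher. Classes were listed from general knowledge of the family. The domains of each protein were not checked, those of Trim12a included. Of all genes tested, 9.87% were called higher. These 11 include the 7 of the chromosome 7 cluster, of which Trim30d and Trim6 passed the limit only through EGR1OV. Of the 37 members of this class, 21 were tested. None was called lower in EGR1OV against Sham, and the median log2 change was 0.44. Members without a RING were classed apart whatever their C-terminus, so this class need not hold every member with a PRY-SPRY domain. Of 4 members with no domain after the coiled coil, 2 were tested and both were called. Among 4 members without a RING, 3 were tested, with Trim14 higher, Trim16 lower and Trim44 level at 38.1 FPKM in Sham and 39.4 in EGR1OV. None of the 12 tested members of the other classes was called: 3 with NHL repeats, 3 with a PHD finger and bromodomain, 1 with a COS box and 5 with another C-terminus. With 16.4% of all genes tested called, a count of 0 in 12 is a description only.

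**Figure D3:**
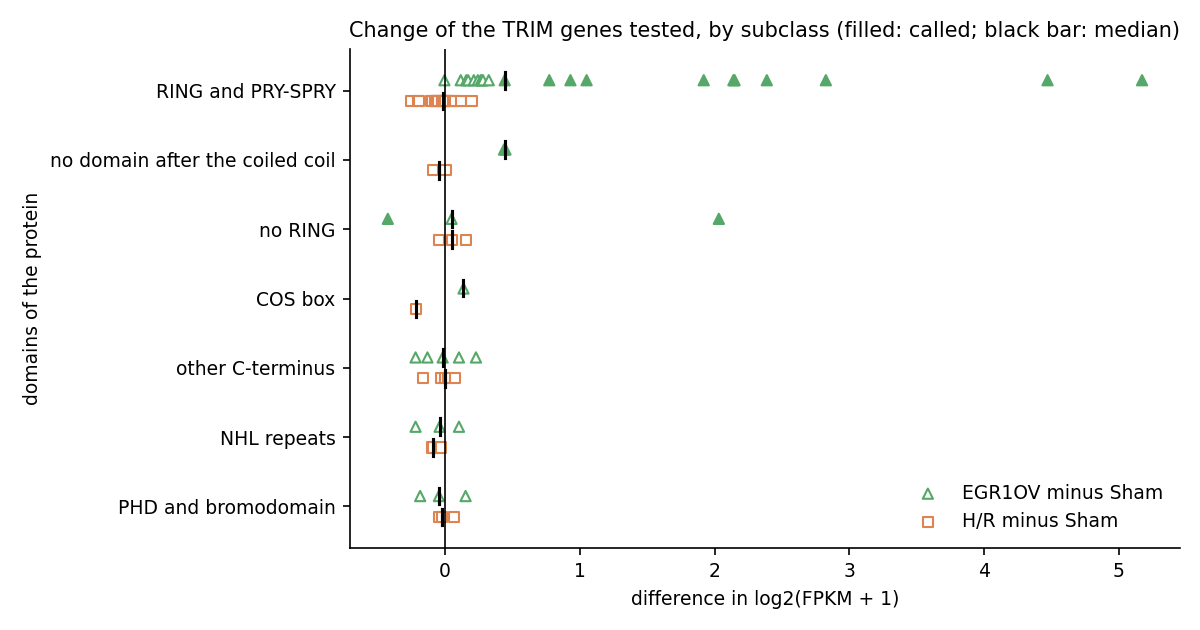
Change in log2(FPKM + 1) against Sham of the tested TRIM genes, by the domains of the protein, for EGR1OV (triangles) and H/R (squares). Filled points were called and black bars are medians. The class listed as having both a RING and a PRY-SPRY domain runs from -0.01 to 5.17 in EGR1OV, and no H/R point is filled.

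Trim28, the most abundant member, was at 70.7, 71.7 and 74.6 FPKM in Sham and at 78.9, 84.6 and 78.0 in EGR1OV, and its change of 0.15 ± 0.0372 passed the test (limma adjusted p = 0.00843) but not the fold. Its relatives Trim24 and Trim33, also chromatin regulators, had changes of -0.19 (adjusted p = 0.00439) and -0.05 (0.382) by the same limma fit. Trim32, the most abundant NHL member and a ligase known from muscular dystrophy, was at 16.0 ± 1.19 FPKM in Sham and 17.2 ± 0.45 in EGR1OV, and Trim46, which bundles microtubules in neurons, at 4.93 ± 0.0742 and 5.52 ± 0.204 FPKM. Trim59, a membrane-anchored member, was at 18.4 to 19.8 FPKM in Sham and 15.2 to 17.2 in EGR1OV, without overlap, yet its change of -0.22 (limma adjusted p = 0.00591) was under the fold. Just under the fold on the higher side stood Trim47, at 0.32, Trim65, at 0.28, and Trim35, at 0.27. Trim27, Trim23, Trim13 and Trim62 had changes of 0.21, 0.10, -0.13 and 0.17 and were not called. Across all 38 tested members the EGR1OV and Sham libraries did not overlap for 29, 25 higher and 4 lower, where 55.7% of all genes tested did not overlap.

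**Figure D4:**
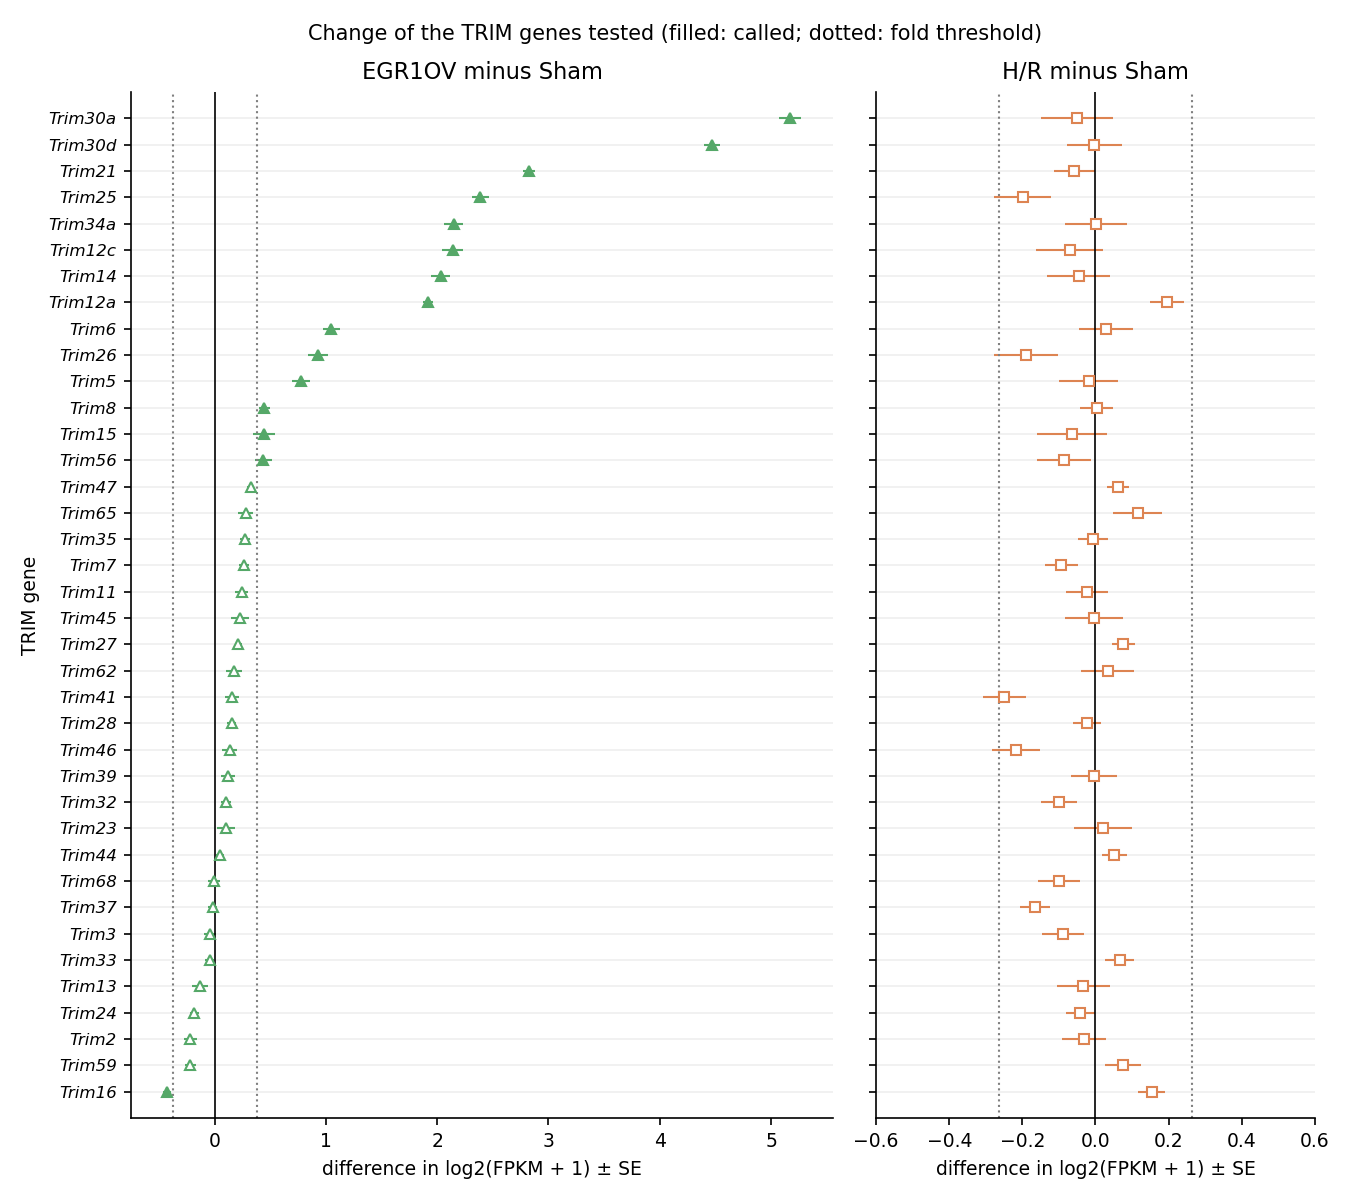
Difference in log2(FPKM + 1) from Sham with its standard error for the 38 TRIM genes tested, EGR1OV at left and H/R at right, with 3 libraries per group. Filled symbols were called and dotted lines mark the fold threshold; the H/R differences all lie between -0.25 and 0.20.

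In H/R against Sham the TRIM counts were near or below the shares of all genes. By limma 0 of 38 members were called, where the share of all genes tested was 4.25% (1.6% higher, 2.65% lower). Without adjustment 7 members (18.4%) had a p under 0.05, beside 28.0% of all genes, and voom, a limma method for counts run on the recovered reads, called 2, Trim41 and Trim46, both lower. The median change was -0.02 on the log2 scale, against -0.03 over all genes. For 4 members (10.5%) limma gave an adjusted p under 0.05, all below the fold of 1.2, where 11.7% of all genes had such a p with any fold. Trim12a was 0.20 ± 0.0466 higher (limma adjusted p = 0.0293) and Trim16 0.15 ± 0.0373 higher (0.0317), while Trim41 was 0.25 ± 0.0597 (0.03) and Trim37, a ligase of peroxisomes and centrosomes, 0.16 ± 0.0418 (0.0365) lower. Trim41 was at 13.7, 13.9 and 13.4 FPKM in Sham and at 11.6, 10.7 and 11.6 in H/R, with no overlap. Trim46, at 4.86 to 5.0 FPKM in Sham and 3.59 to 4.53 in H/R, had a change of -0.22 (limma adjusted p = 0.0659) and was called once H/R replicate 1 was left out. Of the 14 members called higher in EGR1OV, Trim12a had the largest difference in the same direction in H/R, and Trim25 and Trim26 were 0.20 and 0.19 below Sham without passing the test (limma adjusted p = 0.133 and 0.192). Groups did not overlap for 11 of 38 members, where 33.6% of all genes tested did not overlap.

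Set directly against H/R, EGR1OV had 15 members called higher and 1 lower, 16 of 38, where the share of all genes tested was 18.9% (11.9% higher, 6.94% lower). Trim14, Trim30d and Trim6, which passed the limit only through EGR1OV, are among the 16. Among the 35 members at or above 0.5 FPKM in H/R, 13 were called (37.1%), beside 18.3% of the 13599 genes of that kind. This comparison and that with Sham share the EGR1OV libraries. Trim41 was called here and not against Sham: at 15.9, 16.4 and 13.8 FPKM in EGR1OV, it was 0.41 ± 0.0597 above H/R (limma adjusted p = 0.000394), and it was not called without H/R replicate 2, without EGR1OV replicate 2 or with another scaling of the libraries. Trim16 fell by 0.58 ± 0.0373 against H/R (limma adjusted p = 1.64e-06). Trim30a, Trim21 and Trim25 stood 5.22, 2.88 and 2.59 above H/R, against 5.17, 2.83 and 2.39 above Sham. Groups did not overlap for 32 of 38 members, where 58.6% of all genes tested did not overlap.

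Of the 29 members not tested, 2 (Trim58 and Trim80) were at 0 in all libraries, 11 had at most 3 reads in any library and 16 had more. The 11 include Trim63 (MuRF1, a ligase of striated muscle), with 1 read in all, and Trim9, with 2. Trim72 (MG53, which reseals torn membranes in muscle) had 7, 2 and 6 reads summed over Sham, H/R and EGR1OV, and Trim38, which acts on TAB2, had 11, 10 and 9. Trim69 had 7, 8 and 37 reads, a ratio of EGR1OV to Sham of 5.35 per depth (95% exact interval 2.35 to 14.2), and Trim36, the highest of the 29, had 120, 143 and 92 (ratio 0.776, interval 0.585 to 1.03). These intervals cover counting error only.

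Markers of other cells moved between the same groups. Of 12 leukocyte markers listed there, 10 were tested, and all 10 were called lower in EGR1OV than in Sham. The summed level of the 12 was 159 to 164.5 FPKM in Sham, 134.6 to 144.6 in H/R and 29.1 to 34.5 in EGR1OV. On average Lyz2 went from 57.65 FPKM in Sham to 5.46 in EGR1OV, C1qa from 31.1 to 4.5 and C1qb from 20.8 to 3.66. Ptprc, which was not tested, was at no more than 0.533 FPKM in any library. Summed tubular markers were at 1895 to 1933, 1751 to 1829 and 1233 to 1337 FPKM, with 1 of 9 tested called higher and 4 lower in EGR1OV. The keratins Krt8 and Krt18 carried that sum and were called lower, falling from 1014 to 617.8 and from 684.6 to 412.1 FPKM. Also called lower were Lrp2, from 3.6 to 1.22 FPKM, and Aqp1, from 1.3 to 0.368 FPKM. Epcam was the one called higher, from 76.2 to 100.4 FPKM. Pax8, at 13.1 FPKM in Sham and 13.5 in EGR1OV, was not called (limma adjusted p = 0.348). Cdh1 (86.2 and 101.5 FPKM), Pax2 (14.6 and 19.1) and Cdh16 (24.3 and 19.6) were not called either, but missed only the fold. Their limma adjusted p was 3.44e-05, 0.000431 and 0.000171. Striated muscle markers summed to 141.2 to 150.1, 116.1 to 125.5 and 37.7 to 38.7 FPKM, mostly Acta1, which was called lower, with Myog at or near 0. Another muscle marker, Mylpf, was called higher, from 0.86 to 1.51 FPKM (limma adjusted p = 0.0025). Endothelial markers summed to 9.21 to 9.66, 9.41 to 9.77 and 6.52 to 7.18 FPKM, and fibroblast markers to 31.8 to 33.4, 38.0 to 39.5 and 36.8 to 41.8 FPKM. In EGR1OV against Sham, 1 of 4 tested endothelial markers was called lower, Pecam1, from 1.755 to 1.01 FPKM. Of 3 tested fibroblast markers, 1 was called higher, Col1a2, from 7.22 to 10.2 FPKM. The part of such cells in the TRIM values was not tested.

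Genes that work with TRIM proteins were read from lists drawn up with earlier results of these data known, so their shares are descriptions only. Of 16 signalling proteins on which TRIM ligases act, all were tested, and 7 were called higher and none lower in EGR1OV against Sham (all genes: 9.87% and 6.51%), with a median log2 change of 0.27, and none was called in H/R. Irf7, the interferon regulatory factor that amplifies type I interferon, went from 0.823 to 223 FPKM on average (log2 change 6.95, limma adjusted p = 1.38e-11), and the RNA sensors Ifih1 (MDA5) and Ddx58 (RIG-I, the target of TRIM25) changed by 3.17 and 2.75. Mavs, Traf6, Tab2 and Map3k7 were not called, at 0.11, 0.19, 0.23 and 0.03. Of 11 tested enzymes that activate or carry ubiquitin and ISG15, 2 were called higher and 1 lower, shares near those of all genes: Uba7 and Ube2l6, which charge ISG15, changed by 3.02 and 5.17, and Ube2v2, a partner of Ube2n, fell by 0.38. The ubiquitin-activating enzyme Uba1 and the conjugating enzymes Ube2d1, Ube2d2a and Ube2d3, common partners of RING ligases, were not called.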

How the data were processed

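RNA-Seq libraries of primary renal tubular cells from mouse, 9 in all, were grouped by their titles as Sham, H/R or EGR1OV (3 each). The authors deposited 1 table of FPKM, with a column per library. The submitters' processing notes name HISAT2 2.1.0, Bowtie2 2.2.3, TopHat2 and the build mm9, but 94.578% of the table's gene positions equal GENCODE M21 (GRCm38) and 99.763% of its identifiers are found there, and positions are printed as the table has them. The counting tool and its strand setting are not given in the sources used here.

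Members were taken by symbol; they, the gene lists and the subclasses were chosen with earlier results of these data known. FPKM values multiplied by the M21 exon length were whole multiples of 1 read for 94.033% of 162897 values of 1 to 1000 reads (within 0.02 reads), which gave the depth of each library. Tests ran on log2(FPKM + 1), a scale on which low genes change less than their ratio, for 13985 genes with a mean of at least 0.5, by limma 3.58.1 with trend (R 4.3.3) on all 9 libraries with group as the only term, two-sided, with Benjamini-Hochberg adjustment. The code was tested on simulated data. The thresholds of 0.05 and of fold 1.3 or 1.2 follow the study.

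The genes named are members called in a comparison and the most abundant in Sham and in each subclass. Also named are those of the chromosome 7 and 17 groups, members with well known roles and those next to the limit on low values. Up to 3 called genes per list and direction are named, and for the tubular markers all that were tested. Listed genes named as not called were chosen after their values were seen, as were Trim9, Trim37, Trim47, Trim58, Trim69, Trim72 and Trim80. Sequence shared between genes was measured as the share of a transcript's 50-base stretches also found in transcripts of another gene of M21. Alternatives were another pseudocount, limit, scaling, fold and model and leaving out each library.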

Additional observations from a re-analysis of the deposited data

How the results depend on the processing

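Counts of TRIM members called were recomputed under 21 alternatives for each comparison. Against Sham, EGR1OV had 15 members called, and 11 to 17 under every alternative other than the fold. With no fold threshold there were 26, and with a 2-fold threshold 9. Quantile normalization lost Trim8 and Trim56 (13 called), and a limit of 5 FPKM left out Trim14, Trim15, Trim5 and Trim6, which were then not tested (11 called). Leaving out any 1 of the 9 libraries left the same 15. The median change of the tested members stayed above that of all genes, at 0.16 with quantile normalization and 0.22 with median-ratio scaling, against -0.05 and 0 for all genes. In H/R against Sham, 0 members were called, 1 with a pseudocount of 0.1 (Trim41), 2 with voom on the recovered reads (Trim41 and Trim46), 4 with no fold threshold, and 0 to 1 when a library was left out (1, Trim46, without H/R replicate 1). In EGR1OV against H/R, 16 were called, 30 with no fold threshold and 10 with a 2-fold threshold, and 12 to 18 otherwise. Trim41 was not called there with median-ratio scaling or quantile normalization. Counting each called member once per alternative that tested it, 279 of 281 against Sham and 295 of 300 against H/R kept their direction and call, and 0 reversed. Voom and a fit of protein-coding genes only were chosen after seeing the data. Replicate numbers did not pair the libraries: deviations of same-numbered libraries correlated at -0.021 to 0.062 across genes, not every library correlated best with its own number, and a fit with the replicate block called 15, 0 and 16 members, as without it. The 29 members not tested were left out by their mean FPKM; 13 of them had at most 3 reads in any library, where this depth gives little precision.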

Other observations

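Some genes have the tripartite motif or parts of it under other symbols. Of 8 such genes, 4 were tested and 1, Pml, was called in EGR1OV against Sham. Pml, the organiser of nuclear bodies of that name and known as TRIM19 in man, was at 13.2, 13.3 and 13.7 FPKM in Sham, at 12.1, 12.9 and 12.3 in H/R and at 48.2, 51.3 and 49.4 in EGR1OV. Its change was 1.81 in log2(FPKM + 1) (limma adjusted p = 2.59e-10), and all EGR1OV libraries lay above the others. Mid1 and Mid2, microtubule-binding ligases known as TRIM18 and TRIM1 in man, had changes of -0.28 and 0.08 and were not called, and Bspry had 0.06. None of the 4 was called in H/R against Sham.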
